A study of Mus musculus with 48 samples.

Results

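The Hox genes were followed in mouse skin, as every probeset whose gene symbol is Hox followed by a cluster letter from a to d and a paralog number. The array held 33 such probesets for 32 genes, of 38385 probesets in all and 24478 that name 1 gene. Past the filter on low values were 31 of the 33 probesets, and Hoxb1 and Hoxd1 were below it. Hoxd11 had 2 probesets, called the first and the second here, and every other gene had 1.

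Skin RNA came from 48 male diet-induced obese C57BL/6 mice, 8 weeks old by the labels, with 1 array per mouse. All mice, vehicle included, were dosed by mouth for 14 days, and the compounds inhibit DGAT1, an enzyme of the last step of triglyceride synthesis. Study 1 held Cpd2, Cpd1 and vehicle groups of 8 mice each, Study 2 held Cpd2, Cpd6 and vehicle groups of 4, and Study 4 held Cpd6, Cpd18 and vehicle groups of 4. In the study's terms Cpd2 and Cpd6 are skin-positive, which means that they caused atrophy of the sebaceous glands, whereas Cpd1 and Cpd18, which did not, are called skin-negative. The labels name dorsal skin for every array, whereas the methods allow for dorsal or ventral biopsies or both, and the site of each biopsy along the body is not given in the sources used here. The labels give no dose. The study's text names a lower dose for Cpd1 than for Cpd2 beside its histology and no dose for these arrays, so Cpd2 is set beside Cpd1 without a matched dose having been stated.

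Hox genes encode homeodomain transcription factors and lie in 4 clusters, in which the order of the genes follows the order of their use along the body from head to tail. Low paralog numbers mark the hindbrain and neck, and high ones mark the lumbar, sacral and tail regions and the distal limbs. Dermal fibroblasts of adult skin keep a Hox pattern that differs between body sites. Hoxc13 is set apart from this role, since it is made in the matrix and cortex of the hair follicle, where it acts on hair keratin genes.

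The promoters of the Hoxa genes on which the results turn are shown because these neighbours were all called in Cpd1 versus vehicle. Each window runs from 250 bases before to 50 after the start of the gene, as RefSeq gives it in GRCm38.p6, and is written 5′ to 3′ on the strand of the gene. The capitals mark the letters TTTAT or their complement ATAAA, which form the core that HOX proteins of the posterior groups prefer. Hoxa7 lies at chr6:52218524-52218823, Hoxa9 at chr6:52227321-52227620 and Hoxa10 at chr6:52234890-52235189 for its first start and chr6:52240805-52241104 for its second, all on the minus strand. The starts are numbered by chromosome coordinate, so on this strand the second start of Hoxa10 is the upstream one.
Hoxa7: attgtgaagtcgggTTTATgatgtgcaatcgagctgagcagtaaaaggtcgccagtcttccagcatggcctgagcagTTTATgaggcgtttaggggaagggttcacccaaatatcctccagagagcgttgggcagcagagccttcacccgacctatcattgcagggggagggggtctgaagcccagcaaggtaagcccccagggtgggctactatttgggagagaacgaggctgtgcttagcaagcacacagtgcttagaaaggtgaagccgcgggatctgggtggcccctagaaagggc
Hoxa9: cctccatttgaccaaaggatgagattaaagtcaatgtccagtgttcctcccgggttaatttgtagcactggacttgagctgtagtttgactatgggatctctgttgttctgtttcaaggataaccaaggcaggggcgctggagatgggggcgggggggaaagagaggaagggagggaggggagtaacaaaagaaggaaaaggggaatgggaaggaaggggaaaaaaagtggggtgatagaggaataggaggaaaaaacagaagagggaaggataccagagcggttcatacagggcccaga
Hoxa10 first start: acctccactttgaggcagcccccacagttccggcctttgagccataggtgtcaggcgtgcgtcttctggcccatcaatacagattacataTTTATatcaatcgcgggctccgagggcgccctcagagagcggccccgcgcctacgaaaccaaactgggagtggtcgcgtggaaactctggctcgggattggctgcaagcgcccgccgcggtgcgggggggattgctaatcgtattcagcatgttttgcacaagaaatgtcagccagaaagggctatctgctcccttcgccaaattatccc
Hoxa10 second start: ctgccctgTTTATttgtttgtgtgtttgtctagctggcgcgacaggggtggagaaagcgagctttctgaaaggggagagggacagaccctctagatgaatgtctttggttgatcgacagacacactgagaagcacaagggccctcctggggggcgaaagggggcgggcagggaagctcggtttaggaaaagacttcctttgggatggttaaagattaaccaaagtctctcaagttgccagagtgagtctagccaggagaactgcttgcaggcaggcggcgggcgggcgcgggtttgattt
The Hoxa7 window held 2 matches and 9 CG pairs, the Hoxa9 window 0 matches and 4 CG pairs, and the Hoxa10 windows 1 match each with 21 and 12 CG pairs. Promoters could be matched for 19 of the 32 genes, with 21 windows. Of these, 8 held a match on either strand, against 40% of all 32851 windows of the same 300 bases. The Hox windows held a median of 14 CG pairs, with a range from 4 to 45, and all windows a median of 7. A match is a description of the letters and not of a bound site.

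Values are log2 of the deposited intensity, and levels are compared only within a probeset. Array medians lay between 26.39 and 30.78 on the linear scale, and no arrays held identical values. The defining markers of fibroblasts, with 11 of 12 listed genes measured, had a mean log2 intensity from 10.50 to 11.59 over all mice, and those of epidermal keratinocytes, with 8 of 12 measured, from 11.23 to 12.16. Of 21 skeletal muscle markers 19 were measured, and their mean was 5.79 to 12.16 in the Cpd2 mice of Study 1, 11.53 to 12.21 in its Cpd1 mice and 10.38 to 12.39 in its vehicle mice. The 3 Cpd2 mice lowest in muscle markers were replicates 3, 4 and 7. Vehicle replicate 4 of Study 1 also stood apart, being the lowest or highest of its group for 18 of the 31 Hox probesets and 52.0% of all probesets, against 17.4% to 25.4% of all probesets for the other vehicle mice of that study. The calls of Study 1 are also given without these mice.

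The largest fold changes among the members were those of Hoxc10 in Study 1. Hoxc10, Hoxa10, Hoxa9 and Hoxa7 were higher in the Cpd1 mice than in the vehicle mice, and Hoxc10, Hoxa10, Hoxa9 and Hoxa11 were lower in the Cpd2 mice than in the Cpd1 mice. The Cpd2 and vehicle mice overlapped for Hoxc10 and Hoxa10, with Cpd2 mice on both sides of the vehicle range. The Hoxc10 changes were 9.07-fold higher in Cpd1 than in vehicle mice and 9.69-fold lower in Cpd2 than in Cpd1 mice. Cpd1 versus vehicle and Cpd2 versus Cpd1 share the Cpd1 mice, so they are not independent of each other. A difference between the groups in biopsy site along the body, which is not given for each mouse, was not tested.

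Hoxc10 patterns the lumbar spinal cord and the hindlimb. In Study 1 its log2 intensity was 2.14 at the lowest, 3.84 at the median and 6.40 at the highest in Cpd2 mice. In Cpd1 mice these values were 6.36, 7.18 and 7.67, and in vehicle mice 2.72, 3.69 and 5.66. All 8 Cpd1 mice lay above all 8 vehicle mice, while 1 Cpd2 mouse, replicate 1 at 6.40, passed the lowest Cpd1 mouse, so these 2 groups overlapped. The means were 3.80 ± 1.38 in Cpd2 mice, 7.08 ± 0.47 in Cpd1 mice and 3.90 ± 0.99 in vehicle mice (SD, n = 8 each). The log2 fold change of Cpd1 over vehicle was 3.18 ± 0.46 (SE, 95% confidence interval 2.23 to 4.14), with a limma adjusted p of 0.00174. That of Cpd2 over Cpd1 was -3.28 ± 0.46, with a limma adjusted p of 4.83e-05. Cpd2 over vehicle came to -0.09, with an interval from -1.05 to 0.86.

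Hoxa10 acts in the lumbar vertebrae and the reproductive tract. Its log2 intensity in Study 1 was 5.07, 7.16 and 8.18 at the lowest, median and highest in Cpd2 mice, 8.54, 8.69 and 8.83 in Cpd1 mice, and 5.84, 6.95 and 8.04 in vehicle mice. The Cpd1 mice lay above every mouse of both other groups and within a narrow range, with an SD of 0.10 against 0.96 in Cpd2 mice and 0.70 in vehicle mice. The gene was 3.04-fold higher in Cpd1 than in vehicle mice, a log2 fold change of 1.60 ± 0.31 (SE, limma adjusted p = 0.0185). It was 3.34-fold lower in Cpd2 than in Cpd1 mice, at -1.74 ± 0.31 (limma adjusted p = 0.000602). Cpd2 over vehicle was -0.14, with an interval from -0.78 to 0.51.

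Hoxa9 is a posterior gene of the trunk that is also known for its part in blood stem cells and leukaemia. It was 3.10, 4.38 and 4.94 at the lowest, median and highest in Cpd2 mice, 5.76, 6.00 and 6.19 in Cpd1 mice, and 4.34, 4.61 and 5.34 in vehicle mice. The Cpd1 mice again did not overlap with either other group. Hoxa9 was 2.42-fold higher in Cpd1 than in vehicle mice, at 1.27 ± 0.20 on the log2 scale (SE, limma adjusted p = 0.00252), and 3.36-fold lower in Cpd2 than in Cpd1 mice, at -1.75 ± 0.20 (limma adjusted p = 1.64e-06). Its difference between Cpd2 and vehicle mice, -0.48 with an interval from -0.88 to -0.07, was not called after adjustment (limma adjusted p = 0.113).

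Hoxa11, a gene of the forearm, lower leg and uterus, was near the low end of its range in most mice of Study 1. It was 1.64, 2.19 and 2.67 at the lowest, median and highest in Cpd2 mice, 1.99, 3.28 and 5.10 in Cpd1 mice, and 1.59, 2.36 and 2.90 in vehicle mice. Cpd1 replicates 3 and 6, at 4.93 and 5.10, were the highest, and Cpd1 replicates 1 and 2, at 1.99 and 2.43, lay among the mice of the other groups. Cpd2 over Cpd1 was called, at -1.25 ± 0.33 (SE, limma adjusted p = 0.00978), whereas Cpd1 over vehicle, at 1.23, was not (limma adjusted p = 0.0990). All Cpd2 and vehicle mice of Study 1 were below 2.93, the filter on the mean over all 48 arrays, which Hoxa11 passed at 3.05, so the sizes of both differences are uncertain.

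Hoxa7, a gene of the upper trunk, was called in both comparisons with vehicle. It was 7.49, 8.19 and 8.47 at the lowest, median and highest in Cpd2 mice, 8.32, 8.37 and 8.55 in Cpd1 mice, and 7.32, 7.76 and 8.00 in vehicle mice. All Cpd1 mice lay above all vehicle mice, and the Cpd2 mice overlapped both. Cpd1 over vehicle was 0.70 ± 0.13 on the log2 scale, or 1.62-fold higher (SE, limma adjusted p = 0.0105), and Cpd2 over vehicle 0.40 ± 0.13, or 1.32-fold higher (limma adjusted p = 0.0364). The Hoxa7 call for Cpd2 was lost when the 3 muscle-low Cpd2 mice were left out (0.34, limma adjusted p = 0.208) and when any 1 of 9 of the 16 mice was left out. The direct difference of Cpd2 from Cpd1, -0.30, was not called (limma adjusted p = 0.0973).

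**Figure D1:**
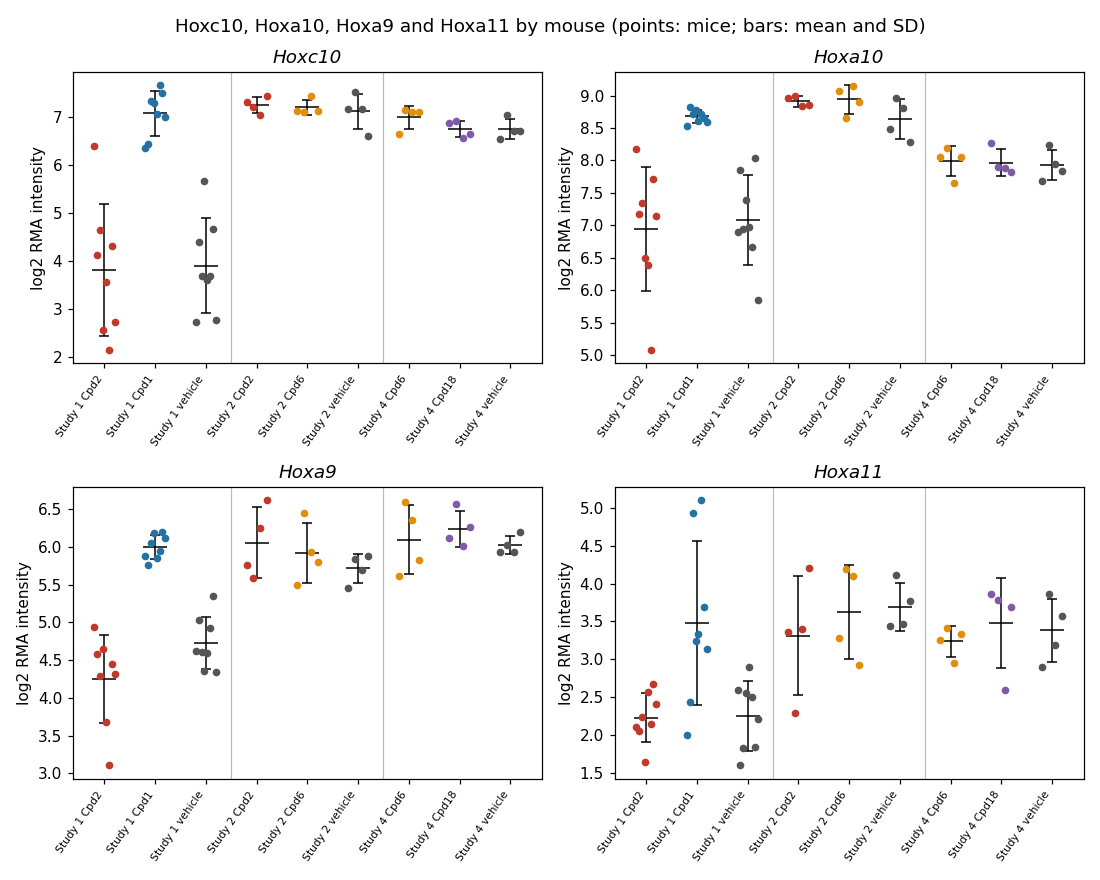
Log2 intensity of Hoxc10, Hoxa10, Hoxa9 and Hoxa11 in single mice of the 9 groups, with points for mice and bars for the mean and SD. For Hoxc10 the Cpd1 mice of Study 1 lie between 6.36 and 7.67, all above the vehicle mice of that study between 2.72 and 5.66.

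In counts, 4 of the 31 Hox probesets were called higher and 0 lower in Cpd1 than in vehicle mice, namely Hoxa7, Hoxa9, Hoxa10 and Hoxc10, and in each the groups did not overlap. Over all probesets 0.247% were called higher in that comparison, 0.327% in either direction, and 0.125% were higher with no overlap. Cpd2 against vehicle gave 1 call, Hoxa7, where 13.1% of all probesets were called in either direction and 7.09% higher. Cpd2 against Cpd1 gave 8 calls, all lower, against 8.25% of all probesets called lower and 17.2% in either direction. Groups did not overlap for 3 of these, Hoxa9, Hoxa10 and Hoxd9, against 1.54% of all probesets lower with no overlap. Hoxa11, with all its Cpd2 mice below the filter value, is 1 of the 8 calls. Without vehicle replicate 4, the mouse that stood apart, Hoxa7, Hoxa9, Hoxa10 and Hoxc10 were again the 4 calls for Cpd1 against vehicle, where 0.573% of all probesets were then called, with Hoxc10 at 3.43. Cpd2 against vehicle then had 4 calls, where 17.7% of all probesets were called, with Hoxa7 higher and Hoxa4, Hoxd8 and Hoxd9 lower. Cpd2 against Cpd1 then had 9 calls, the 8 named for all mice among them, where 21% of all probesets were called. Vehicle mice bear on that comparison because the groups of a study share their estimate of the spread.

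The other 4 members called lower in Cpd2 than in Cpd1 mice moved by less than 0.6 on the log2 scale. Hoxb5, a gene of the neck and upper trunk, was 7.06 to 8.46 in Cpd2 mice and 7.73 to 8.57 in Cpd1 mice, a log2 fold change of -0.55 (limma adjusted p = 0.0165). Hoxd9, a gene of the lower trunk and limbs, was 10.44 to 10.71 in Cpd2 mice and 10.77 to 11.17 in Cpd1 mice, a log2 fold change of -0.39 (limma adjusted p = 0.0268). Hoxa5, known for its part in the lung and the neck vertebrae, had a log2 fold change of -0.37 (limma adjusted p = 0.0102), and Hoxc9, a thoracic gene, -0.37 (limma adjusted p = 0.0465). The call for Hoxc9 was the least firm of these, and was lost in 11 of the 16 fits that left out 1 mouse. Hoxd9 lost its call without Cpd1 replicate 2 alone. Without vehicle replicate 4 both were called, with a limma adjusted p of 0.0258 for Hoxc9 and 4.76e-05 for Hoxd9.

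The muscle markers were measured beside these calls, since all 19 were called lower in Cpd2 than in vehicle mice of Study 1, with a median log2 fold change of -2.54, and lower than in Cpd1 mice, with a median of -2.30. The 3 Cpd2 mice lowest in muscle markers had Hoxc10 from 2.56 to 4.65, Hoxa10 from 6.49 to 7.72 and Hoxa9 from 4.29 to 4.65. The other 5 Cpd2 mice had Hoxc10 from 2.14 to 6.40, Hoxa10 from 5.07 to 8.18 and Hoxa9 from 3.10 to 4.94, so the ranges overlapped. Without the 3 mice, 3 members remained called lower in Cpd2 than in Cpd1 mice, Hoxa9, Hoxa10 and Hoxc10, with log2 fold changes of -1.88, -1.89 and -3.30. The share of all probesets called was then 6.05%, against 17.2% with all mice. The other 5 members were not called with 5 Cpd2 mice, at -1.23 for Hoxa11, -0.34 for Hoxa5, -0.41 for Hoxc9, -0.37 for Hoxd9 and -0.36 for Hoxb5, which had -0.55 with all mice. In whole skin, fewer cells of a type and less RNA per cell cannot be told apart.

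By position along the clusters, the 14 probesets of paralog groups 9 to 13 had a median log2 fold change of 0.26 for Cpd1 over vehicle, with 3 called higher, and the 14 of groups 4 to 8 had 0.15, with 1 called higher. The 3 of groups 1 to 3 had -0.17, with 0 called. For Cpd2 over Cpd1 these medians were -0.38 with 6 called lower, -0.27 with 2 called lower and 0.16 with 0 called. Hoxa11, with all its Cpd2 mice below the filter value, is 1 of the 6. Over all probesets 0.247% were called higher for Cpd1 over vehicle and 8.25% lower for Cpd2 over Cpd1. Probesets above 0 for Cpd1 over vehicle numbered 10, 11 and 1 in these classes, in the same order, against 49.5% of all probesets. For Cpd2 over Cpd1 these counts were 5, 1 and 2, against 56.2%. Over all 31 members the median was 0.17 for Cpd1 over vehicle, against -0.00 for all probesets, and -0.29 for Cpd2 over Cpd1, against 0.04 for all probesets.

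**Figure D2:**
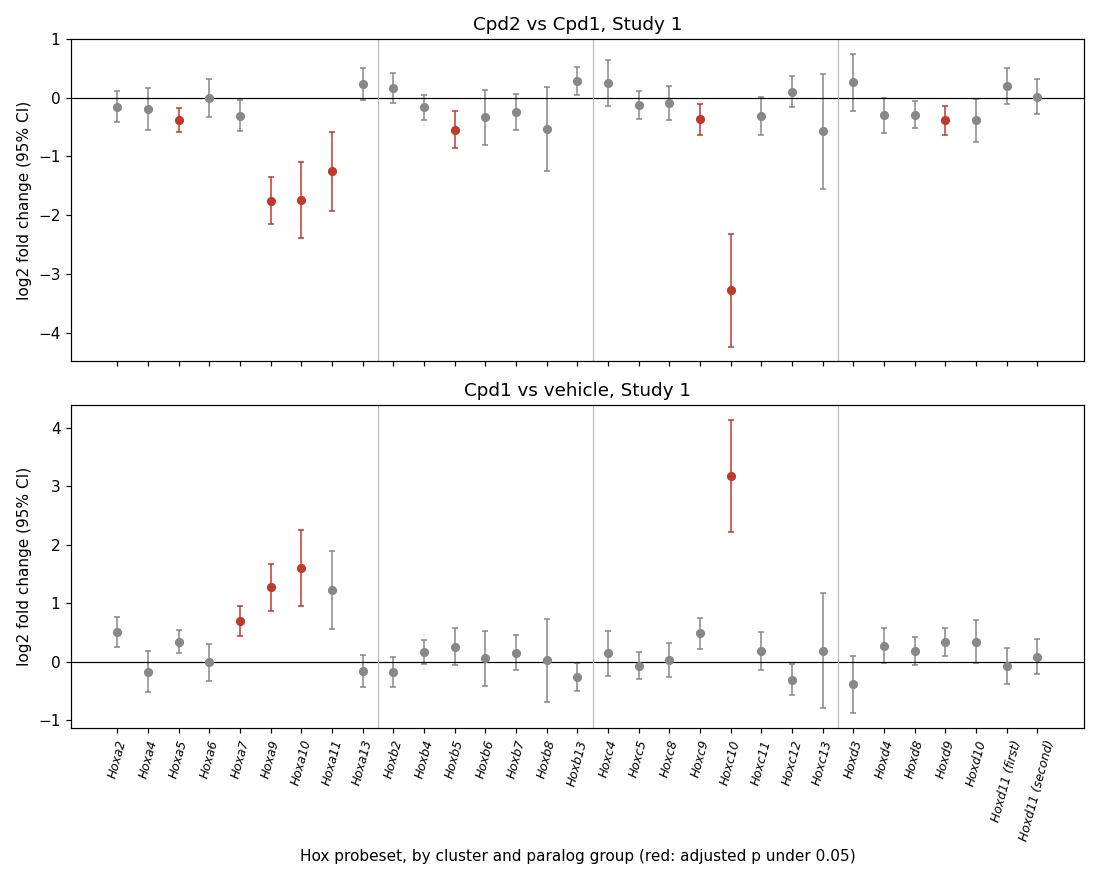
Log2 fold change with its 95% confidence interval for each Hox probeset in the order of cluster and paralog group, for Cpd2 versus Cpd1 (top) and Cpd1 versus vehicle (bottom) in Study 1, with called probesets in red. Hoxc10 is farthest from 0 in both panels, at -3.28 for Cpd2 versus Cpd1 and 3.18 for Cpd1 versus vehicle.

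In the other studies the groups lay close together for Hoxc10. It was 7.32, 7.21, 7.05 and 7.45 in the Cpd2 mice of Study 2, 7.14, 7.10, 7.45 and 7.13 in its Cpd6 mice, and 7.17, 7.52, 7.17 and 6.62 in its vehicle mice. In Study 4 it was 6.65, 7.16, 7.10 and 7.10 in Cpd6 mice, 6.87, 6.91, 6.56 and 6.66 in Cpd18 mice, and 6.54, 7.05, 6.72 and 6.71 in vehicle mice. The treated and vehicle mice of both studies overlapped. The log2 fold change of Hoxc10 for Cpd2 in Study 2 was 0.14, with an interval from -0.23 to 0.51.

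Set across the studies, the low values of Study 1 were found in its vehicle and Cpd2 mice. Hoxa5, Hoxa9, Hoxa10, Hoxa11 and Hoxc10 were lower in every vehicle mouse of Study 1 than in every vehicle mouse of Study 2, a share of 5 of 31 members against 1.86% of all probesets. Against the vehicle mice of Study 4, 6 members were lower with no overlap, Hoxa5, Hoxa7, Hoxa9, Hoxa11, Hoxc10 and Hoxd4, against 12.9% of all probesets. In that comparison 1 member was higher with no overlap, Hoxb2, against 9.56% of all probesets. Hoxa11 is 1 of the 5 and 1 of the 6. All vehicle mice of Study 1 were below the filter value for Hoxa11, so its place in these counts is uncertain. The Cpd2 mice of Study 1 were below those of Study 2 with no overlap for Hoxa9, Hoxa10 and Hoxc10, against 2.02% of all probesets. The Cpd1 mice of Study 1 had 0 members lower than the vehicle mice of Study 2 with no overlap, against 1.34% of all probesets, and 1 member higher, Hoxd10, against 2.02%. Against the vehicle mice of Study 4 they had 6 members higher with no overlap, Hoxa10, Hoxb2, Hoxb7, Hoxc8, Hoxc9 and Hoxd10, against 11.9% of all probesets, and 1 lower, Hoxa7, against 12.9%. These groups belong to different studies, so study and group cannot be told apart, and no test was made. For the effect of Cpd2 over vehicle, Study 1 minus Study 2 was -0.24 for Hoxc10, with an interval from -1.50 to 1.02, and -0.82 for Hoxa9 (limma adjusted p = 0.180). The interaction gave 0 calls among the Hox probesets, with 0.726% of all probesets called, and 3 members at an unadjusted p under 0.05, against 15.4%.

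Hoxc13 was the member with the widest spread within groups, with an SD of 0.97, and the member with the largest change for Cpd6 in Study 4. It was 7.10, 7.15, 6.81 and 7.23 in Cpd6 mice, 7.39, 9.29, 8.71 and 9.48 in Cpd18 mice, and 10.01, 7.70, 9.03 and 10.23 in vehicle mice. Every Cpd6 mouse lay below every Cpd18 and vehicle mouse. Cpd6 over vehicle was -2.17 ± 0.48 (SE, limma adjusted p = 0.0140), 4.51-fold lower. Cpd18 over vehicle was -0.53, with an interval from -1.55 to 0.50, and Cpd6 over Cpd18 was -1.65 (limma adjusted p = 0.184).

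In Study 2 Hoxc13 was not called. Hoxc13 was 7.42, 7.45, 7.50 and 8.06 in Cpd2 mice, 7.13, 7.53, 7.59 and 7.59 in Cpd6 mice, and 7.64, 8.93, 10.03 and 10.91 in vehicle mice. Cpd6 mice lay below all vehicle mice, and Cpd2 replicate 4 lay above vehicle replicate 1. The log2 fold changes were -1.77 for Cpd2 (limma adjusted p = 0.315) and -1.92 for Cpd6 (limma adjusted p = 0.100), and Cpd2 over Cpd6 was 0.15, with an interval from -0.87 to 1.17. The Cpd6 effect on Hoxc13 in Study 2 minus that in Study 4 was 0.25, with an interval from -1.58 to 2.09. In Study 1 Hoxc13 was 7.39 to 9.25 in Cpd2 mice, 7.12 to 9.91 in Cpd1 mice and 7.38 to 11.26 in vehicle mice, and was not called in any comparison.

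Hoxc13 followed the hair markers from mouse to mouse. Of 21 genes of the hair shaft and matrix 13 were measured, and their mean log2 intensity over mice was 3.97 to 6.15 in the Cpd6 mice of Study 4, 4.47 to 9.95 in its Cpd18 mice and 3.94 to 10.62 in its vehicle mice. After the mean of each group was taken away, Hoxc13 and the hair markers had a Pearson r of 0.94 and a Spearman rho of 0.90 over 48 mice, with a permutation p of 1.0e-05 for each, the smallest the permutations could give, and 4.5e-05 after adjustment over 9 relations. Without the 2 mice farthest from the median hair level r was 0.93. Within the studies r was 0.97 in Study 1, 0.90 in Study 2 and 0.93 in Study 4. The widest gap in the mean of the hair markers was 1.22 wide and lay between 6.15 and 7.37, with 20 mice above it and 28 below, and r was 0.87 in the mice above and 0.28 in the mice below. Hoxc13 was 8.06 to 11.3 in the mice above, with a median of 9.27, and 6.81 to 8.23 in the mice below, with a median of 7.53. With the hair markers in the fit, the Hoxc13 difference of Cpd6 from vehicle in Study 4 was -0.82 (limma adjusted p = 0.101). The part of hair follicle cells in the Hoxc13 values was not tested otherwise.

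**Figure D3:**
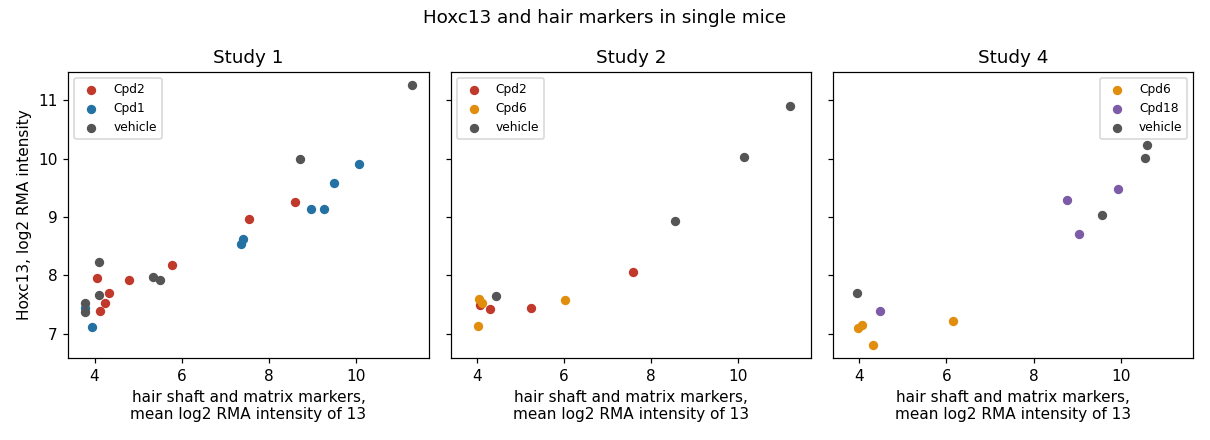
Log2 intensity of Hoxc13 against the mean log2 intensity of 13 hair shaft and matrix markers, with 1 panel per study and 1 point per mouse. The Cpd6 mice of Study 4 lie at 6.81 to 7.23 for Hoxc13 and 3.97 to 6.15 for the hair markers.

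Beside Hoxc13, Hoxb6 and Hoxd9 were called for Cpd6 against vehicle in Study 4, so that 1 Hox probeset was called higher and 2 lower, against 4.56% and 6.17% of all probesets and 10.7% in either direction. Hoxb6, a gene of the trunk, was 5.28, 5.43, 5.48 and 5.27 in Cpd6 mice, 5.50, 6.15, 5.67 and 5.74 in Cpd18 mice, and 6.28, 5.93, 5.73 and 6.26 in vehicle mice. The Cpd6 mice lay below all others, and Cpd6 over vehicle was -0.69 ± 0.16 (SE, limma adjusted p = 0.0165), 1.61-fold lower. Without Cpd6 replicate 4 or vehicle replicate 4 of that study the Hoxb6 call was lost. Hoxd9 was 11.14, 11.16, 10.98 and 11.12 in Cpd6 mice and 10.63, 10.95, 10.83 and 10.64 in vehicle mice, a log2 fold change of 0.34 ± 0.08 (SE, limma adjusted p = 0.0143), 1.26-fold higher. The calls for Hoxc13, Hoxb6 and Hoxd9 were all lost under the methods' t-test with the adjustment used here, with adjusted p of 0.0858, 0.0511 and 0.0802. The study's own rule, an unadjusted p with a fold change cut, was not applied. With the hair score in the fit Hoxb6 was at -0.53 (limma adjusted p = 0.193) and Hoxd9 at 0.21 (limma adjusted p = 0.226), and with the muscle score at -0.58 (limma adjusted p = 0.0659) and 0.27 (limma adjusted p = 0.0612). In 1 fit over all 48 arrays their limma adjusted p were 0.158 and 0.191. The 13 hair markers had a median log2 fold change of -4.48 for Cpd6 over vehicle there, with 2 called lower, and over the 48 mice with group means taken away Hoxb6 had r of 0.60 with Hoxc13 and Hoxd9 had -0.70. The part of the hair follicle cells in the Hoxb6 and Hoxd9 values was not tested otherwise.

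Hoxb8, a trunk gene known in mice for its part in grooming behaviour, was 4.08, 3.94, 4.01 and 3.94 in the Cpd6 mice of Study 4, 3.91, 5.17, 3.50 and 4.28 in the Cpd18 mice, and 5.32, 4.67, 4.35 and 5.25 in the vehicle mice. The Cpd6 mice lay below all vehicle mice, yet Cpd6 over vehicle, at -0.90, was not called (limma adjusted p = 0.0586). In all, 3 members were higher with no overlap in Cpd6 than in vehicle mice, Hoxd3, Hoxd9 and the first Hoxd11 probeset, against 8.82% of all probesets. Lower with no overlap were 4, Hoxb4, Hoxb6, Hoxb8 and Hoxc13, against 10.1% of all probesets.

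Hoxb6 and Hoxb8 went together across mice. With group means taken away their Pearson r over 48 mice was 0.75 and their Spearman rho 0.64, with permutation p of 1.0e-05 and 5.0e-05, and adjusted values over the 9 relations of 4.5e-05 and 0.00015. Within Studies 1, 2 and 4 r was 0.74, 0.79 and 0.87, and without the 2 mice farthest from the median it was 0.59. Hoxc10 and Hoxa10 had r of 0.75 and rho of 0.73, with permutation p of 0.00033 and 1.0e-05, adjusted to 0.00099 and 4.5e-05. Within the studies r was 0.76, 0.76 and 0.43, and without the 2 farthest mice 0.61. Of all 465 pairs of members, Hoxb6 with Hoxb8 and Hoxc10 with Hoxa10 had the highest r. The adjustment covered the 9 relations and not the 465 pairs, so these p do not allow for a choice among the pairs. Hoxc10 with Hoxa9 gave r of 0.42 and rho of 0.39 (permutation p = 0.037 and 0.012, adjusted 0.0666 and 0.027). Within the studies its r was 0.51, 0.0073 and 0.58, and without the 2 farthest mice 0.15. With the muscle markers r was -0.20 for Hoxc10, -0.18 for Hoxa10 and 0.16 for Hoxb8 (adjusted permutation p = 0.59, 0.59 and 0.373). The rho of Hoxc10 with them was -0.34 (adjusted permutation p = 0.0972). Hoxc10 had r of -0.30 with the fibroblast markers (adjusted permutation p = 0.165), at -0.48, 0.63 and 0.22 within the studies. Hoxb8 had r of 0.39 with the hair markers (adjusted permutation p = 0.054).

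Pairs of members were compared by the correlation of their deviations from the group means. The 21 pairs of the same cluster with paralog numbers at most 1 apart had a median r of 0.27, the 85 pairs of the same cluster 2 or more apart 0.07, the 29 pairs of the same paralog group in different clusters 0.08, and the other 330 pairs 0.01. These are descriptions over 48 mice that share their arrays, and they carry no p. Hoxd8 with Hoxd9 at 0.74 and Hoxb6 with Hoxb7 at 0.70 were among the closest, and Hoxc13 with Hoxd9 at -0.70 was the lowest. Cross-hybridisation between paralogs was not tested.

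In the remaining comparisons no Hox probeset was called by limma. Cpd2 against vehicle in Study 2 had 0 calls, against 0.129% of all probesets, with 5 members at an unadjusted p under 0.05 by limma, where 7.38% of all probesets were, and 3 by the methods' t-test. Cpd6 against vehicle in Study 2 had 0 calls, against 0.379%, with 4 such members by limma, against 11.8%, and 3 by the methods' t-test. Cpd2 against Cpd6 had 0 calls, against 0%, with 1 such member by each, against 8.23% by limma. In Study 4, Cpd18 against vehicle had 0 calls, against 0.00347%, with 3 such members by limma, against 7.96%, and 2 by the methods' t-test. Cpd6 against Cpd18 had 0 calls, against 0.490%, with 4 such members by limma, against 12.5%, and 6 by the methods' t-test. The Cpd6 effect in Study 2 minus Study 4 had 0 calls, against 0%, and 0 members at an unadjusted p under 0.05 by limma, against 7.72% of all probesets.

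Some members did not overlap in these comparisons. Hoxb6 was lower with no overlap in Cpd2 than in vehicle mice of Study 2, where 1.45% of all probesets were, at -0.70 (limma adjusted p = 0.301), with 5.27 to 5.76 in Cpd2 mice and 5.92 to 6.52 in vehicle mice. Cpd6 in Study 2 had Hoxc4 and the second Hoxd11 probeset higher with no overlap, against 4.31% of all probesets, and Hoxc13 lower, against 2.52%. Cpd2 lay below Cpd6 for the first Hoxd11 probeset, against 2.79% of all probesets. Cpd6 lay below Cpd18 for 5 of the 31 members, Hoxb4, Hoxb6, Hoxc8, Hoxc12 and Hoxc13, against 3.65% of all probesets.

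**Figure D4:**
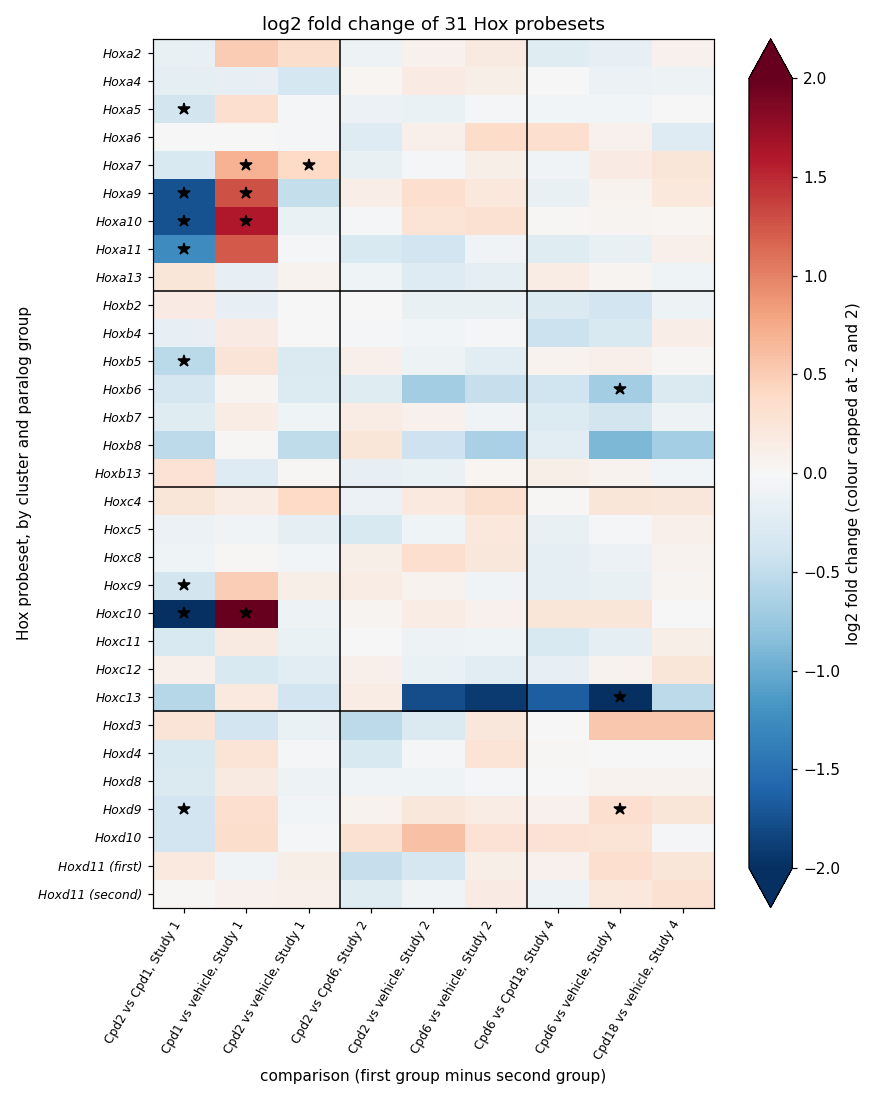
Log2 fold changes of the 31 Hox probesets past the filter in the 9 comparisons, with colour held within -2 to 2 and stars at an adjusted p under 0.05. Stars stand at 4 probesets for Cpd1 versus vehicle, 8 for Cpd2 versus Cpd1, 1 for Cpd2 versus vehicle in Study 1 and 3 for Cpd6 versus vehicle in Study 4.

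The members differed in how far their levels varied between groups. Over the 9 groups the SD of the group means was 1.41 for Hoxc10, at percentile 99.7 of all probesets, 0.80 for Hoxc13, 0.75 for Hoxa10, 0.70 for Hoxa9 and 0.56 for Hoxa11. Among the other members it was 0.10 to 0.52. Hoxb1 and Hoxd1, below the filter, were at 2.21 to 3.61 and 1.53 to 2.70 over the 48 mice.

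**Figure D5:**
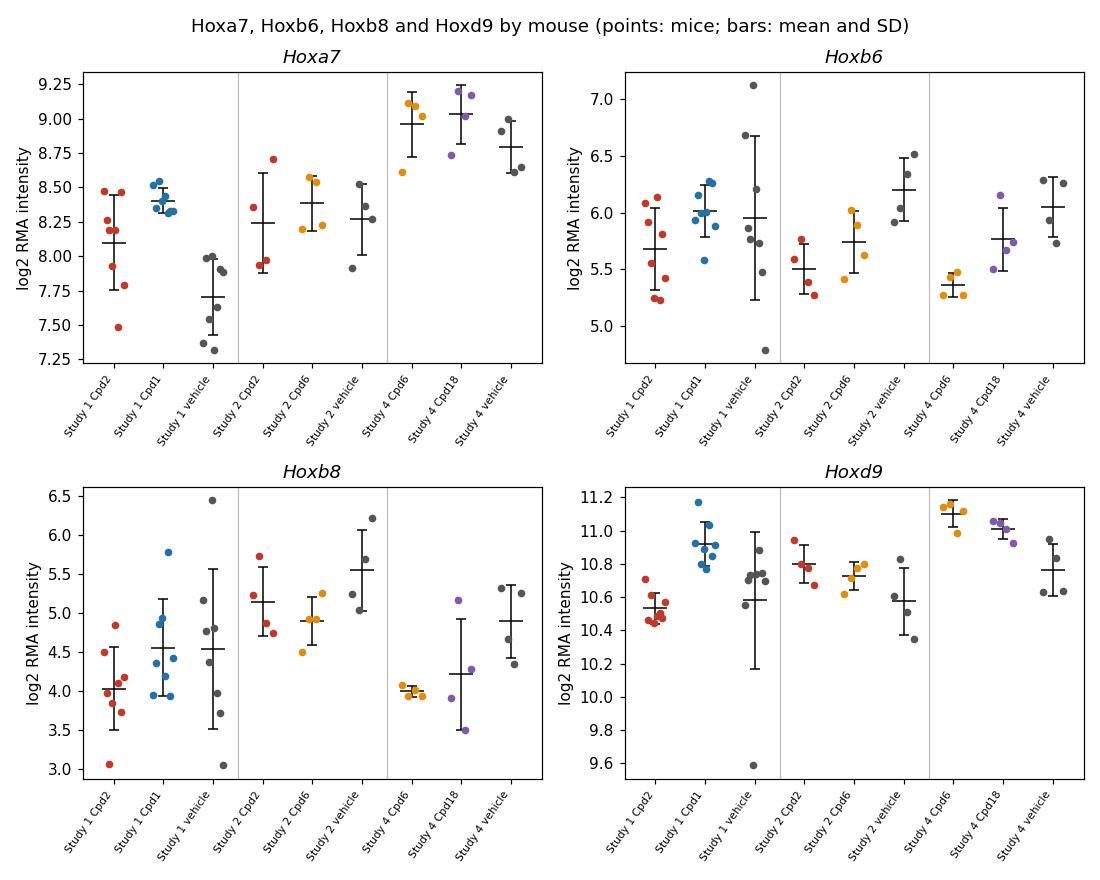
Log2 intensity of Hoxa7, Hoxb6, Hoxb8 and Hoxd9 in single mice of the 9 groups, with points for mice and bars for the mean and SD. The Cpd6 mice of Study 4 lie between 5.27 and 5.48 for Hoxb6, against 5.73 to 6.28 in the vehicle mice of that study.

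Genes that work with or on the Hox genes were counted from lists, and the values here are log2 fold changes. Of 8 cofactors tested, the Pbx, Meis and Pknox partners that bind DNA with HOX proteins, 1 was called higher in Cpd2 than in Cpd1 mice of Study 1, Pbx4 at 0.33, against 8.99% of all probesets, and 1 lower, Pknox2 at -0.72, against 8.25%. Of 22 regulators, Polycomb and Trithorax proteins and genes of retinoic acid, 1 was called higher in Cpd1 than in vehicle mice. It was Cyp26b1, an enzyme that breaks down retinoic acid, at 0.49 (limma adjusted p = 0.0344), against 0.247% of all probesets called higher. In Cpd2 against vehicle in Study 1, 3 regulators were called higher and 3 lower, against 7.09% and 6.00% of all probesets, in a comparison where all 19 muscle markers were called lower. Cyp26b1 at 0.56 and the Polycomb genes Cbx7 at 0.56 and Cbx2 at 0.37 were higher. Among those lower, Suz12 of the Polycomb proteins stood at -0.61, and Rarb, a retinoic acid receptor, at -1.03. In Cpd2 against Cpd1, Phc1, a Polycomb protein, was lower at -0.54 and Rarb at -0.73, and Rnf2, another Polycomb protein, was higher at 0.36. Over all probesets 8.25% were called lower and 8.99% higher there. Of 24 other transcription factors of body position, 1 was called lower in Cpd2 than in vehicle mice, Tbx15, at -0.47, and 1 in Cpd2 than in Cpd1 mice, Tbx18, at -0.46. The shares of all probesets called lower were 6.00% and 8.25%. Cpd6 in Study 2 had Msx1, a homeobox gene of limb buds and hair follicles, lower at -1.49 (limma adjusted p = 0.0381), against 0.288% of all probesets. In Study 4 Cpd6 had Pknox2 higher at 0.49, Tbx15 at 0.43 and Kdm6b, which removes a Polycomb mark from histones, at 0.28. These were 1 each of the 8 cofactors, the 24 position factors and the 22 regulators, against 4.56% of all probesets called higher. Hotairm1, a noncoding RNA of the Hoxa cluster, was higher in Cpd2 than in vehicle mice of Study 1, at 0.51, and than in Cpd1 mice, at 0.48 (limma adjusted p = 0.00871). It was 1 of 2 such RNAs tested, and 7.09% and 8.99% of all probesets were called higher in these comparisons. In alternatives chosen after seeing the data, the 3 muscle-low Cpd2 mice or vehicle replicate 4 were left out. Without the 3 mice, Cbx7, Cyp26b1, Rarb and Hotairm1 remained called in Cpd2 against vehicle, and Suz12 at -0.40, Phc1 at -0.47, Cbx2 at 0.34 and Tbx15 at -0.36 did not, where 4.65% of all probesets were called. In Cpd2 against Cpd1, Phc1, Rarb, Tbx18 and Hotairm1 remained called, and Pbx4 at 0.28, Pknox2 at -0.59 and Rnf2 at 0.35 did not. Without vehicle replicate 4 each of these genes was called in the same direction as with all mice.

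The genes most like the mean of Hoxa9, Hoxa10 and Hoxc10 over 48 mice, with group means taken away, were Piwil4, Pole4 and Ift22, each with a Pearson r of 0.61, out of 15290 genes ranked. Within Studies 1, 2 and 4 r was 0.71, 0.30 and -0.24 for Piwil4, 0.70, 0.47 and 0.61 for Pole4, and 0.68, 0.39 and 0.43 for Ift22. The range over all of those genes was -0.61 to 0.61. Among the Hox genes, Hoxa7 had r of 0.61 and Hoxa5 0.46, and Hoxc4 had -0.48. Of the 10 genes named by the rule, Serpina3j had r of 0.58, which came to 0.18 without the 2 mice farthest from the median. Ccna1 had r of 0.58, Plrg1 0.57, Coa8 0.55, and Cst6 and 2210016F16Rik 0.54 each. Without the 2 farthest mice these came to 0.36, 0.54, 0.35, 0.50 and 0.43, in the same order. Within Studies 1, 2 and 4 Ccna1 had 0.69, -0.029 and -0.20, and Plrg1 0.66, -0.22 and 0.34. Coa8 had 0.63, 0.33 and 0.58, Cst6 0.65, 0.52 and 0.29, and 2210016F16Rik 0.59, 0.80 and -0.049. Akr1c21, an aldo-keto reductase, had r of 0.56, with 0.65, -0.26 and 0.35 within the studies. It was called higher in Cpd1 than in vehicle mice of Study 1, at 2.99 (limma adjusted p = 8.55e-05). In Cpd2 against Cpd1 mice Akr1c21 was called lower, at -4.16 (limma adjusted p = 1.08e-08). Serpina3j was also called lower there, at -4.67 (limma adjusted p = 3.37e-08), and the rest of the 10 genes were not called.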

How the data were processed

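The authors measured skin RNA on custom Affymetrix arrays and deposited linear intensities made with RMA (version not given in the sources used here), which corrects background, normalizes arrays and summarises probes. Groups came from the sample labels. Log2 of the intensity was fitted per study with limma 3.58.1 in R 4.3.3 (eBayes with an intensity trend, 1 mean per group). The 28789 probesets with a mean at or above the 25th percentile over the 48 arrays (2.93 as log2) were tested, with Benjamini-Hochberg adjustment over all of them, and an adjusted p under 0.05 was a call. The one-way ANOVA of the methods is replaced by a t-test on 2 groups, called the methods' t-test, and their present-call filter, which needs probe-level data, was not used. Calls by this t-test used the same adjustment and threshold as limma. The methods call on an unadjusted p with a fold change cut, a rule that was not applied here. Interactions were fitted over 48 arrays. Relations had 100000 two-sided permutations within groups. The members and lists were chosen with earlier results of these data known. Named genes are every member called in at least 1 comparison, Hoxc13, up to 4 called genes per list, and the 10 genes most like Hoxa9, Hoxa10 and Hoxc10. Replicate numbers did not pair the mice, and the number of arrays limits the precision. On simulated arrays for Cpd1 versus vehicle in Study 1 (28789 probesets), 84% of log2 changes of 1 and 36% of those of 0.5 were recovered, and for Cpd2 versus vehicle in Study 2, with 4 mice a group, 62% and 18%. Alternatives were other filters and scalings, a replicate block, a joint fit of all studies, the methods' t-test, each mouse left out, a muscle or hair score as covariate and, added after the data were seen, 3 Cpd2 mice left out. Figures used matplotlib 3.10.9 in Python 3.11.15.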

Additional observations from a re-analysis of the deposited data

Results flagged for a closer look

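Dixon's 95% critical value was applied within 99 groups of 4 or 8 mice, over 11 Hox probesets. In 9 groups the gap of a mouse to the nearest other mouse, divided by the range of the group, exceeded it. Chance flags about 1 in 20 groups, and no explanation was tested. In Study 1, Hoxd9 was 9.59 in vehicle replicate 4, against 10.55 to 10.88 in the other vehicle mice, and Hoxb5 was 8.46 in Cpd2 replicate 1, against 7.06 to 7.70 in the other Cpd2 mice. In Study 2, Hoxc10 was 7.45 in Cpd6 replicate 3 (others 7.10 to 7.14), Hoxc13 was 8.06 in Cpd2 replicate 4 (others 7.42 to 7.50), and Hoxc13 was 7.13 in Cpd6 replicate 1 (others 7.53 to 7.59). In Study 4, Hoxc10 was 6.65 in Cpd6 replicate 1 (others 7.10 to 7.16), Hoxa10 was 8.27 in Cpd18 replicate 1 (others 7.83 to 7.90), Hoxa11 was 2.59 in Cpd18 replicate 3 (others 3.68 to 3.86) and Hoxc9 was 7.02 in Cpd18 replicate 2 (others 6.70 to 6.75).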

How the results depend on the processing

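Hoxa9, Hoxa10 and Hoxc10 kept their calls in Cpd1 versus vehicle and in Cpd2 versus Cpd1 of Study 1 in every alternative. They also kept them without any 1 mouse of the groups compared. In counts without 1 mouse, that mouse came from the groups compared unless another is named. The causes of the changes below were not tested. For Cpd1 versus vehicle, 7 members were called in 1 fit over all 48 arrays and 7 with the hair score as covariate, against 4, and 4 to 5 without 1 mouse. For Cpd2 versus vehicle in Study 1 (1 call), 2 were called in the fit over all arrays and 0 with the methods' t-test, the muscle score, or when the 3 muscle-low Cpd2 mice were left out (a setting chosen after seeing the data), and 0 to 4 without 1 mouse, 4 of them without vehicle replicate 4 (Hoxa4, Hoxd8 and Hoxd9 lower, Hoxa7 higher). For Cpd2 versus Cpd1 (8 calls), 3 were called with the muscle score and 3 without the 3 mice. Without 1 Cpd1 or Cpd2 mouse 7 to 8 were called, and without vehicle replicate 4 it was 9. For Cpd6 versus vehicle in Study 4 (3 calls), 1 was called in the fit over all arrays, 0 with the methods' t-test, 1 with the muscle score and 0 with the hair score, and 2 to 5 without 1 mouse. Without 1 mouse, Cpd2 versus vehicle and Cpd6 versus vehicle in Study 2 gave 0 to 1 call (Hoxc13 lower, without vehicle replicate 1), Cpd6 versus Cpd18 0 to 1 (Hoxc13 lower, without Cpd18 replicate 1), Cpd2 versus Cpd6 and Cpd18 versus vehicle 0 to 0, and the Cpd2 interaction 0 to 1 (Hoxd9 lower, without vehicle replicate 4 of Study 1).

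Since replicate numbers do not pair the mice, the replicate block is given as an alternative only: with it Cpd2 versus vehicle in Study 1 had 0 calls, Cpd2 versus Cpd1 7 and Cpd6 versus vehicle in Study 4 3. Hoxc13, not called in these comparisons without a covariate, changed sign with the hair score in the fit, at -0.55 for Cpd1 versus vehicle in Study 1 (limma adjusted p = 0.0245), 0.34 for Cpd2 versus Cpd1 and -0.13 for Cpd2 versus Cpd6. Leaving out 1 mouse gave -0.55 to 0.011 for Hoxc13 in Cpd2 versus vehicle of Study 1 and -0.0016 to 0.21 in Cpd2 versus Cpd6.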
